A study of Mus musculus with 4 samples.

Results

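Outflow tract cardiomyocytes are the muscle cells of the arterial end of the embryonic heart tube. They were chosen here from single-cell RNA sequencing of whole mouse hearts at E10.5 by their own transcripts. A cell was kept if it held at least 1500 genes and at most 10% mitochondrial transcripts. It was then required to carry at least 20 UMIs of *Tnnt2* (cardiac troponin T) and at least 10 of *Ttn* (titin) per 10000, a UMI being a tag that marks 1 captured RNA molecule. The endothelial genes *Pecam1*, *Cdh5* and *Ecscr* together had to stay below 2 per 10000. The cell could hold at most 1 UMI of *Shox2* and *Bmp2* together, genes of the venous pole and the atrioventricular canal. Finally it had to hold at least 2 UMIs of *Bmp4* and *Mybpc1* together. Of 30415 kept cells, 1444 met this definition, 770 in control and 674 in *Tie2-cko* libraries.

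The outflow tract is built by progenitors of the second heart field, which express *Isl1* and enter the arterial pole after the first heart tube has formed. BMP4, a secreted ligand made by its muscle wall, acts on SMAD proteins and is required for septation of the tract and for the growth of its cushions. Outflow tract muscle contracts slowly, keeps smooth muscle-type contractile genes and does not take on the natriuretic peptide program of the chambers.

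The study compared 2 control libraries, numbered 5 and 7 and labelled *Tie2flfl*, with 2 *Tie2-cko* libraries, numbered 6 and 8, in which an *Nfatc1Cre* knock-in deleted the floxed *Tie2* (*Tek*) alleles in the endocardium. The study used embryos of both sexes, with a background mixed from 129 and C57/BL6, and both genotypes carried the floxed alleles. The Cre driver is endocardial, so that the cardiomyocytes described here were not themselves its target. The methods name 2 hearts per genotype from the same litter and do not say whether a library held 1 heart, so that p-values between genotypes measure the spread between libraries. The methods also describe control and mutant libraries as somite-matched and pooled in a sequencing lane, without naming the pairs. The main test between genotypes used no pairing.

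The 4 libraries held between 8877 and 18488 barcodes and between 169361996 and 259775540 UMIs. In endothelial cells, defined by at least 5 UMIs per 10000 of *Pecam1*, *Cdh5* and *Ecscr*, the deleted gene *Tek* stood at 0.827 and 1.27 UMIs per 10000 in control libraries 5 and 7. It stood at 0.396 and 0.294 in *Tie2-cko* libraries 6 and 8. Library 5 stood apart in the members in 2 ways. Its summed *Hbb-y*, an embryonic globin, reached 56.9 UMIs per 10000 against 3.52 to 8.60 in the other libraries, and it held 342 UMIs of *Xist*, expressed from the inactive X chromosome of females, against 0, 0 and 1. *Ddx3y*, a Y-linked gene, was present in all 4 libraries at 0.195 to 0.238 UMIs per 10000. Between 5 and 27 kept barcodes were shared by any pair of libraries. Barcodes scored as likely doublets were not removed, and made up 15.2%, 4.43%, 6.76% and 10.47% of the members in libraries 5 to 8 against 9.77%, 5.15%, 5.96% and 7.19% of the other *Tnnt2*-high cells.

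The members numbered 415, 158, 355 and 516 in libraries 5, 6, 7 and 8. They were compared with the 11661 other cells that reached the *Tnnt2* level, called other *Tnnt2*-high cells. Of these, 7815 met every step but the last and 1692 were removed for *Shox2* and *Bmp2*. The remainder failed the *Ttn* or the endothelial step, so that the comparison also carries those steps. *Ttn* averaged 51.5 UMIs per 10000 in the members and 36.6 in the other cells. Because the members were chosen on transcripts of these same cells, levels of the members against other cells are described without a test. A level is the mean over cells of UMIs per 10000, taken in each library. Members were sequenced to a median of 28512, 53682, 18858 and 21136.5 UMIs, and the other cells to 29212.5, 50991, 22116 and 24679.

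*Bmp4* and *Mybpc1*, the genes that chose the members, differed in how often they did so. *Mybpc1* encodes a myosin-binding protein best known from slow skeletal muscle. *Bmp4* alone reached 2 UMIs in 256, 94, 245 and 316 members of libraries 5 to 8, both genes did so in 138, 53, 85 and 170, and *Mybpc1* alone did so in 14, 9, 13 and 22. The remaining 7, 2, 12 and 8 members held 1 UMI of each gene. Thus *Mybpc1* was rarely seen without *Bmp4*. Of the cells with at least 2 *Mybpc1* UMIs that met the other steps, 90.8%, 85.5%, 86.7% and 88.5% also had at least 2 of *Bmp4*. Of the cells without them, 10.53%, 10.03%, 9.97% and 10.8% did. *Bmp4* averaged 2.88 ± 0.66 UMIs per 10000 in members (SD, n = 4 libraries) and 0.41 ± 0.045 in the other *Tnnt2*-high cells. *Mybpc1* averaged 0.78 ± 0.095 and 0.045 ± 0.020. On the GRCm38 assembly *Bmp4* lies on the minus strand at chr14:46383520-46390669 and *Mybpc1* on the minus strand at chr10:88518279-88605152.

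The threshold of 2 UMIs cut through a continuous range. The members with exactly 2 UMIs numbered 243, and 869 cells that met every other step held 1 UMI. Members with exactly 2 UMIs averaged 2.22 ± 2.01 UMIs per 10000 of *Rspo3*, 43.2 ± 3.76 of *Acta2* and 9.46 ± 3.07 of *Nppa* (SD, n = 4). Cells with 1 UMI averaged 0.91 ± 0.63, 37.5 ± 3.56 and 24.5 ± 5.99. UMIs of the choosing genes were also found in cells of another type. Red blood cells, with at least 500 *Hbb-y* UMIs per 10000 and median depths of 25922.5 to 62884 UMIs, held 2 or more *Bmp4* and *Mybpc1* UMIs in 3.40%, 0.815%, 1.15% and 2.08% of cells. Free RNA and doublets were not told apart as their source. Of cells meeting every other step, 16.1%, 15.8%, 13.9% and 16.5% did, at median depths of 24462 to 55155.

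The label was set beside 4 further markers, whose UMIs the choice had not used. They were listed along with the definition, with earlier results of these data known, and so are a description and no independent check. All 4 were higher in the members than in the other *Tnnt2*-high cells in every library. *Tnnt1*, the slow skeletal troponin T, stood at 6.90, 5.97, 5.29 and 6.38 UMIs per 10000 in the members of libraries 5 to 8 and at 2.65, 2.79, 2.24 and 1.98 in the other cells. *Rspo3*, a secreted enhancer of Wnt signaling, stood at 4.03, 3.52, 5.82 and 5.18 against 0.98, 0.98, 1.87 and 1.09. *Acta2*, smooth muscle actin, stood at 60.7, 68.3, 59.5 and 64.5 against 37.1, 38.8, 36.2 and 32.1. The lowest library of the members exceeded the highest library of the other cells for each of these genes. The same held for *Clu*, the secreted chaperone clusterin, at 1.45, 1.28, 1.72 and 1.87 against 0.34, 0.37, 0.50 and 0.43. On the log2 scale, with 0.05 added to both levels, the ratios averaged 1.33 ± 0.25 for *Tnnt1*, 1.90 ± 0.25 for *Rspo3*, 0.81 ± 0.14 for *Acta2* and 1.82 ± 0.18 for *Clu* (SD, n = 4). Their mean was 1.47 ± 0.19. It was 1.52 with the likely doublets removed. After thinning each cell to 10000 UMIs, *Rspo3* was found in 55.6% to 79.0% of members, in 14.5% to 20.7% of other *Tnnt2*-high cells and in 0.818% to 3.83% of red blood cells. Thinning left out 7 to 31 members per library. Without it the ranges were 65.2% to 82.5%, 20.8% to 26.6% and 2.24% to 6.58%.

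**Figure D1:**
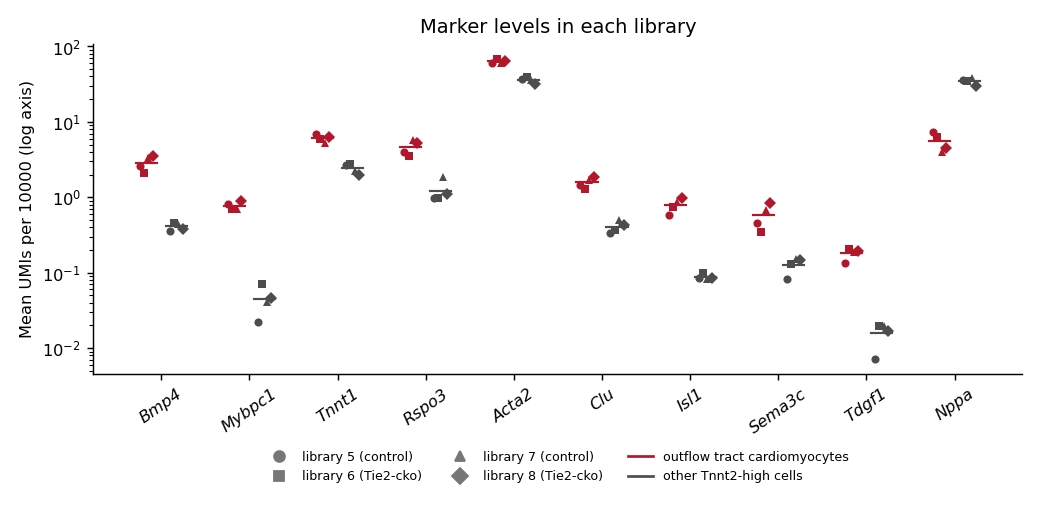
Mean UMIs per 10000 (log axis) of 10 genes in outflow tract cardiomyocytes (red) and other *Tnnt2*-high cells (grey), 1 point per library and a line at the mean of the 4 libraries. *Bmp4* and *Mybpc1* chose the cells. The other markers are higher in red and *Nppa* is lower, with no overlap between the libraries of both groups.

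These levels followed the number of *Bmp4* and *Mybpc1* UMIs in a cell. Among cells that met every other step, *Acta2* averaged 32.2 ± 2.85 UMIs per 10000 where neither gene was seen, 56.5 ± 5.86 at 3 to 5 UMIs and 75.3 ± 8.82 at 11 or more (SD, n = 4). *Tnnt1* went from 2.14 ± 0.40 to 5.06 ± 0.94 and 8.52 ± 1.26 over the same classes. *Nppa*, atrial natriuretic peptide, went the other way, from 43.0 ± 6.21 to 8.09 ± 5.57 and 2.39 ± 1.88. Deeper cells can reach more UMIs of any gene, and the part of depth in this order was not tested.

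**Figure D2:**
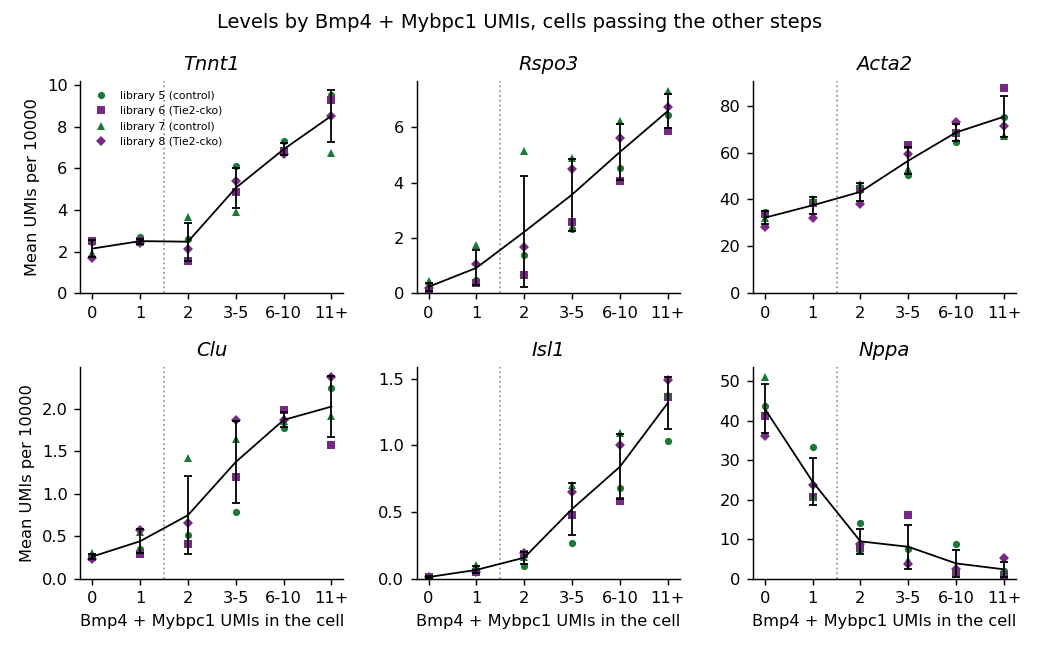
Mean UMIs per 10000 of 6 genes by the number of *Bmp4* and *Mybpc1* UMIs in the cell, among cells that met the other steps, with a point per library (green control, purple *Tie2-cko*) and the mean ± SD of the 4 libraries in black. The dotted line marks the threshold of 2 UMIs. *Acta2* averaged 32.2 in the first class and 75.3 in the last, and *Nppa* 43.0 and 2.39.

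The list of outflow tract myocardium genes was higher in members almost throughout. Of its 13 genes, all at 0.1 UMIs per 10000 or more, 12 were higher in every library and none was lower in every library, with a median log2 ratio of 1.33. Across the 7273 genes at that level, 38.4% were higher in all 4 libraries and 25.4% were lower in all 4, with a median of 0.04. The largest log2 ratio, with 0.05 added to both levels, was that of *Isl1*, the transcription factor of second heart field progenitors, at 0.58, 0.74, 0.85 and 0.97 UMIs per 10000 in the members of libraries 5 to 8 and 0.084, 0.098, 0.083 and 0.084 in the other cells. *Sema3c*, a guidance cue for neural crest cells entering the tract, averaged 0.58 ± 0.22 against 0.13 ± 0.032. *Wnt11*, a non-canonical Wnt ligand, averaged 0.34 ± 0.063 against 0.080 ± 0.014, and *Tdgf1*, the Nodal co-receptor Cripto, averaged 0.18 ± 0.031 against 0.016 ± 0.0058 (SD, n = 4). The exception was *Tbx3*, a repressor of chamber genes in the conduction system, at 0.09 against 0.12.

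Progenitor genes were for the most part low. Of the 12 genes listed for the second heart field, 5 reached 0.1 UMIs per 10000, and all 5 were higher in every library (*Isl1*, *Fgf8*, *Mef2c*, *Hand2* and *Osr1*), with a median log2 ratio of 0.90. *Fgf8*, a growth factor of the progenitor field, averaged 0.12 ± 0.036 against 0.026 ± 0.0066. *Tbx1* stood at 0.02 and *Fgf10* at 0.03 in the members. Among 13 core cardiac transcription factors, 9 were higher in every library, 1 was lower (*Tbx5*) and 3 were mixed. *Mef2c* averaged 2.74 against 1.77 and *Hand2* 1.01 against 0.62, whereas *Gata4* stood at 0.32 in both groups. *Tbx5*, a factor of atria, venous pole and left ventricle, averaged 0.17 against 0.39.

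Smooth muscle-type contractile genes were raised alongside the cardiac ones. Of the 11 genes at 0.1 or more, 9 were higher in every library, *Smtn* was lower and *Des* was mixed, with a median log2 ratio of 0.55. *Tagln*, the actin-binding protein transgelin, stood at 14.8, 18.97, 20.7 and 21.8 UMIs per 10000 in the members of libraries 5 to 8 and at 8.85, 8.03, 12.9 and 8.79 in the other cells. *Cald1*, the contraction regulator caldesmon, averaged 1.95 ± 0.30 against 0.82 ± 0.12, and *Myocd*, a coactivator of smooth and cardiac muscle genes, 0.68 against 0.41. *Myh11*, the myosin of mature smooth muscle, was at 0.01 in both groups. The early smooth muscle actin and transgelin transcripts were thus found in both groups, at higher levels in the members, with little of the late myosin in either.

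Sarcomere genes kept a cardiac profile with a shift between isoforms. Of 18 cardiac sarcomere genes, 9 were higher, 4 were lower and 5 were mixed, with a median log2 ratio of 0.10. *Myl7*, the regulatory light chain of atrial and early heart muscle, averaged 246 ± 20.7 against 164 ± 8.21, and *Myh7*, the slow myosin heavy chain, 23.6 against 17.3. *Myl2*, the ventricular light chain, averaged 30.2 ± 7.69 against 50.0 ± 4.90 and *Myh6*, the fast heavy chain, 8.65 against 13.0. Of the 7 skeletal-type isoforms at 0.1 or more, *Tnnt1* and *Acta1* were higher and 4 were lower. Lower were *Myl1*, a fast-muscle light chain, at 2.82 ± 0.47 against 8.41 ± 0.79, *Tnni2* at 0.74 against 1.95, *Tnnt3* at 0.09 against 0.22 and *Tnni1* at 35.4 against 38.4. The slow isoforms thus differed in both directions, *Tnnt1* being higher and *Tnni1*, the slow skeletal troponin I, lower.

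Chamber genes were lower in the members. Of the 17 at 0.1 or more, 15 were lower in every library, *Tbx20* was higher and *Hand1* was mixed, with a median log2 ratio of -0.90. *Nppa* stood at 7.24, 6.31, 3.98 and 4.49 UMIs per 10000 in the members of libraries 5 to 8 and at 36.02, 35.03, 38.6 and 30.2 in the other cells. *Cited1*, a transcriptional coactivator of ventricular muscle, averaged 1.42 ± 0.60 against 5.64 ± 0.37, and *Smpx*, a small cytoskeletal muscle protein, 2.18 ± 0.22 against 5.56 ± 0.85. *Gja1*, the gap junction protein connexin 43, averaged 0.11 ± 0.043 against 0.40 ± 0.011. Of 6 atrial markers at 0.1 or more, 5 were lower and *Myl4* was mixed, at 79.5 against 80.2.

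**Figure D3:**
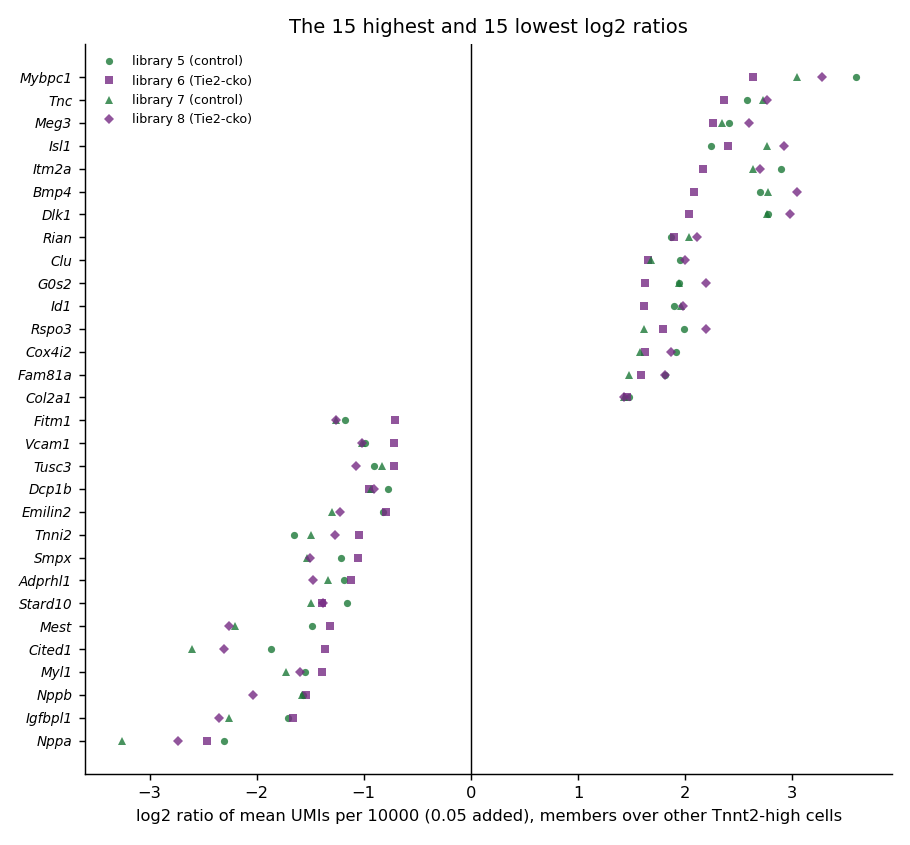
Log2 ratios of the mean UMIs per 10000 (0.05 added) of outflow tract cardiomyocytes over other *Tnnt2*-high cells for the 15 highest and 15 lowest genes, 1 point per library (green control, purple *Tie2-cko*). *Nppa*, at 5.50 against 34.9 UMIs per 10000, lies lowest. Genes were ranked by their least extreme library, so that by this choice all points of a gene lie on the same side of 0.

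The 15 genes with the highest log2 ratio in their least extreme library, among 2595 genes at 0.5 UMIs per 10000 or more, were *Mybpc1*, *Tnc*, *Meg3*, *Isl1*, *Itm2a*, *Bmp4*, *Dlk1*, *Rian*, *Clu*, *G0s2*, *Id1*, *Rspo3*, *Cox4i2*, *Fam81a* and *Col2a1*. *Tnc*, the matrix protein tenascin C, stood at 0.45, 0.48, 0.68 and 0.72 against 0.034, 0.053, 0.061 and 0.063 in libraries 5 to 8. *Itm2a*, a membrane protein of cartilage and muscle precursors, was among the most abundant of them, at 11.3 ± 3.61 against 1.81 ± 0.52. *Col2a1*, the collagen of cartilage, stood at 2.05 ± 0.10 against 0.72 ± 0.030. In all, 34 genes had a log2 ratio of at least 1 in every library and 10 had one of -1 or below. The 15 lowest were *Nppa*, *Igfbpl1*, *Nppb*, *Myl1*, *Cited1*, *Mest*, *Stard10*, *Adprhl1*, *Smpx*, *Tnni2*, *Emilin2*, *Dcp1b*, *Tusc3*, *Vcam1* and *Fitm1*.

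Genes of the BMP pathway other than the choosing gene were mostly higher. Of 19 at 0.1 or more, 15 were higher in every library and 2 were lower (*Bmp5* and *Bmp10*), with a median log2 ratio of 0.39. Among the targets, *Id1*, an inhibitor of bHLH factors induced by SMADs, stood at 1.57, 1.47, 2.17 and 1.99 UMIs per 10000 in the members and at 0.38, 0.45, 0.52 and 0.47 in the other cells. *Id3* averaged 2.03 ± 0.49 against 0.96 ± 0.15, and the inhibitory *Smad6* and *Smad7* averaged 0.29 against 0.13 and 0.59 against 0.33. The receptors showed smaller differences, with *Bmpr1a* at 0.43 against 0.33 and *Bmpr2* at 0.34 against 0.24. The ligand *Bmp10*, made by trabecular muscle, averaged 0.03 against 0.17.

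Of 10 Wnt and R-spondin genes at 0.1 or more, 7 were higher and 3 were lower (*Lgr4*, *Dkk3* and *Sfrp1*), with a median log2 ratio of 0.17. *Lgr4*, a receptor for R-spondins, averaged 0.08 against 0.11, so that the gene for the ligand and that for the receptor differed in opposite directions. Of 7 semaphorin, plexin and neuropilin genes, 4 were higher and *Nrp1* was lower. *Nrp2*, a receptor for class 3 semaphorins, averaged 0.48 ± 0.19 against 0.069 ± 0.021, and *Nrp1* 0.32 against 0.49. Of 18 genes of a matrix list at 0.1 or more, 11 were higher and 3 were lower, with a median of 0.35. *Vcan*, the proteoglycan versican, averaged 6.09 ± 0.90 against 3.21 ± 0.32, and *Tgfbi*, a collagen-binding matrix protein, 0.22 against 0.05. Most of that list was named by the study on these samples, but *Has2* and *Postn* were not. The study used *Fbln2* as a marker of mesenchymal cells and reported fibronectin (*Fn1*) as not altered.

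Genes of DNA replication were lower in the members. Of 33 S phase genes at 0.1 or more, 30 were lower in every library and none was higher, with a median log2 ratio of -0.34. Of 40 genes of G2 and mitosis, 23 were lower and 17 were mixed, with a median of -0.28. *Pcna*, the replication clamp, averaged 0.71 against 0.96, and *Ube2c*, a ubiquitin-conjugating enzyme of mitotic exit, 3.45 against 4.91. *Top2a* stood at 1.75 against 1.81 and was mixed. Among immediate early and heat shock genes, which respond to dissociation, 8 of 11 were higher, with a median of 0.40, and *Fos* averaged 0.91 against 0.57. Their part in the other differences was not tested.

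Transcripts of other cell types differed in level, with red blood cell genes the most abundant. Endothelial, mesenchymal and epithelial markers each summed to more in the members than in the other cells in every library. Of the 8 endothelial markers that the choice had not used, *Kdr*, the VEGF receptor, was at 0.1 or more, at 0.26 ± 0.082 UMIs per 10000 against 0.090 ± 0.0087. The list summed to 0.23 to 0.47 across libraries in the members and 0.19 to 0.27 in the other cells. Of the 9 mesenchymal markers, 4 were at 0.1 or more and 2 of these were higher, *Prrx1* at 0.14 against 0.06 and *Col1a1* at 0.19 against 0.07, with sums of 0.73 to 0.96 against 0.45 to 0.58. None of the 8 neural crest, 7 epicardial or 6 macrophage and platelet markers reached 0.1. The neural crest marker *Sox10* stood at 0.00, and sums were at most 0.09 for neural crest, 0.22 for epicardial and 0.04 for macrophage and platelet genes. Of the 6 epithelial markers, the keratins *Krt8*, *Krt18* and *Krt19* were higher, with *Krt8* at 1.13 ± 0.38 against 0.45 ± 0.14, whereas *Epcam* was at 0.04 and *Cdh1* at 0.00, and the list summed to 2.28 to 3.75 against 1.00 to 1.65. Red blood cell genes summed to 8.45 to 92.3 in the members and 11.03 to 78.0 in the other cells, with library 5 highest in both, and all 5 globins at 0.1 or more were mixed.

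The members were not uniform, and those with at least 2 UMIs of both choosing genes lay further from the other cardiomyocytes. Such members need more choosing UMIs than those at the threshold, and levels such as that of *Tnnt1* rose with that number. The part of that number in the comparison was not tested. A comparison of the 446 members with at least 2 UMIs of both genes with the 911 that had them of *Bmp4* alone was added after the values had been seen. *Tnnt1* stood at 11.2, 10.3, 8.18 and 9.33 UMIs per 10000 with both genes and at 4.69, 3.53, 4.16 and 4.67 with *Bmp4* alone, in libraries 5 to 8. *Tnc* averaged 1.08 ± 0.16 against 0.34 ± 0.15, *Itm2a* 18.3 ± 3.42 against 8.05 ± 4.02 and *Isl1* 1.28 ± 0.16 against 0.57 ± 0.28 (SD, n = 4). *Ankrd1*, a stretch-responsive sarcomere protein, averaged 20.4 ± 2.92 against 11.3 ± 2.12, and *Lmod3*, an actin filament nucleator, 1.36 ± 0.12 against 0.65 ± 0.063. Apart from *Isl1*, these genes were named from the 15 with the highest ratio in the least extreme library. A gap between the groups across libraries is therefore favoured by how they were picked.

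Cycling genes were lower where both genes were found. The G2 and mitosis list summed to 20.97 to 27.9 UMIs per 10000 with both genes, 33.6 to 56.8 with *Bmp4* alone and 48.5 to 55.1 in the remaining cells that met the other steps. The S phase list summed to 7.44 to 8.81, 12.5 to 18.3 and 17.8 to 18.7. *Ccnd2*, cyclin D2, averaged 2.08 ± 0.54 against 5.45 ± 2.11. Members with *Bmp4* alone were thus closer to the other cardiomyocytes, while those with both genes lay below them in every library.

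Some members with *Bmp4* alone also held genes of the venous pole and atria. *Tbx5* averaged 0.24 ± 0.058 UMIs per 10000 with *Bmp4* alone and 0.059 ± 0.0084 with both genes, and *Nr2f2*, the factor COUP-TFII of atrial muscle, 0.22 ± 0.092 and 0.030 ± 0.028. *Wnt2*, a ligand of the inflow region, averaged 0.61 ± 0.16 and 0.22 ± 0.031, and *Cacna2d2*, a calcium channel subunit, 0.54 ± 0.10 and 0.18 ± 0.054. At least 2 UMIs of *Nr2f2* and *Tbx5* together were found in 35.2%, 47.9%, 15.5% and 21.5% of the members with *Bmp4* alone in libraries 5 to 8, and in 7.25%, 11.3%, 3.53% and 10.0% of those with both. This fraction was singled out after its values had been seen. Over all members these shares were 25.3%, 34.2%, 11.8% and 17.4%, highest in the libraries with the deepest cells. In these members *Tnnt1* averaged 3.07 ± 0.84 and *Acta2* 38.8 ± 4.18, close to the 2.42 and 36.1 of the other *Tnnt2*-high cells, and *Isl1* was at 0.16. For this fraction the data go against the name outflow tract. Without it, the mean log2 ratio of the 4 markers was 1.68 in place of 1.47 and that of *Nppa* -3.55 in place of -2.69.

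**Figure D4:**
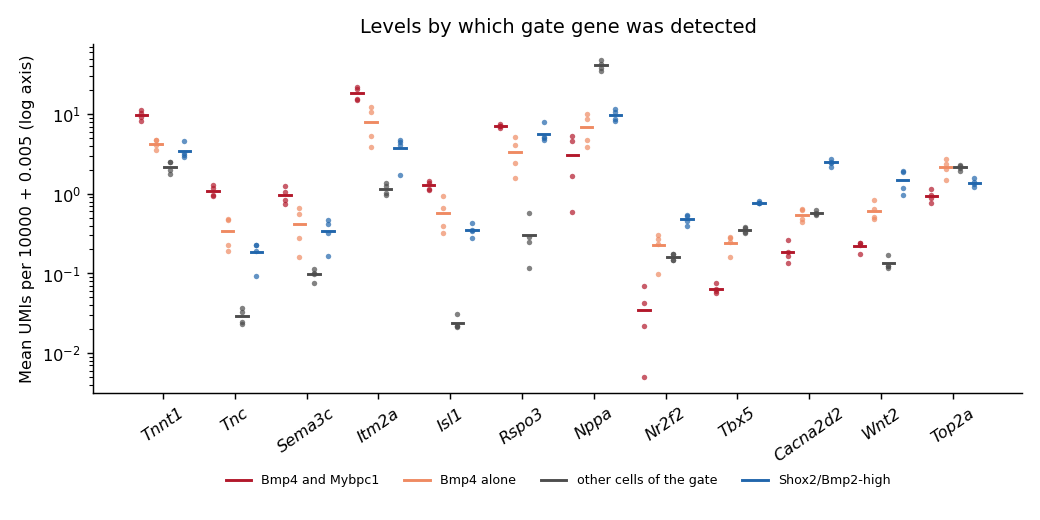
Mean UMIs per 10000 with 0.005 added (log axis) of 12 genes in members with both *Bmp4* and *Mybpc1*, members with *Bmp4* alone, the other cells that met the remaining steps and cells with more than 1 *Shox2* and *Bmp2* UMI, with points for the 4 libraries and a line at their mean. *Tnnt1* averaged 9.74 with both genes and 4.26 with *Bmp4* alone, and *Tbx5* 0.059 and 0.24.

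*Bmp4* was also found outside the definition. Of the cardiomyocytes removed for more than 1 *Shox2* and *Bmp2* UMI, 226 of 453, 124 of 202, 200 of 489 and 230 of 548 held at least 2 *Bmp4* and *Mybpc1* UMIs in libraries 5 to 8. *Rspo3* averaged 5.69 ± 1.5 UMIs per 10000 in the removed cells and 4.64 ± 1.05 in the members, a difference smaller than the spread between libraries. The cells were set apart by *Isl1* at 0.35 against 0.79, *Tnnt1* at 3.45 ± 0.75 against 6.13 ± 0.68, *Cacna2d2* at 2.47 against 0.42 and *Hcn4*, a pacemaker channel, at 0.34 against 0.07. *Rspo3* alone therefore did not separate the groups. Against the remaining cells that met the other steps, at 0.30, the log2 ratio of *Rspo3* was 3.87.

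The next comparison asked whether the share or the transcripts of outflow tract cardiomyocytes differed between genotypes, which the choice of cells had not used. The members made up 12.2% of *Tnnt2*-high cells in control library 5 (95% exact binomial interval 11.1 to 13.4) and 9.49% in control library 7 (8.57 to 10.47). They made up 11.6% (9.94 to 13.4) in *Tie2-cko* library 6 and 11.2% (10.3 to 12.1) in library 8. The intervals cover counting error only. The means were 10.9% ± 1.94 and 11.4% ± 0.28 (SD, n = 2), and the difference of 0.54 percentage points was smaller than the spread between the controls. An exact two-sided permutation test over the 4 libraries gave p = 1, where the smallest p that the design allows is 0.333. Libraries 5 and 6 were sequenced to greater depth per cell than 7 and 8, and within these pairs the difference had opposite signs. After each cell had been thinned to 10000 UMIs, with shallower cells left out, the shares were 8.41% and 7.37% in controls and 7.43% and 9.56% in *Tie2-cko*.

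No gene passed the test between genotypes in the members. UMI counts were summed over the members of a library and compared with edgeR's quasi-likelihood test, adjusted by Benjamini-Hochberg. Of 12676 genes tested, 0 (0%) had an adjusted p under 0.05, and 106 (0.836%) had an unadjusted p under 0.05, 78 of them lower in *Tie2-cko*. That share lies below the one that a threshold of 0.05 gives where no gene differs. The test was thus conservative here, and 0 calls do not show that the transcripts were alike. DESeq2 also called 0, with 50 at an unadjusted p under 0.05. Without a filter on low counts 38 of 19486 genes (0.195%) were called, all lower in *Tie2-cko*, among them *Tek*, *Hapln1* and the 7 listed red blood cell genes. Without control library 5, which stood apart, edgeR called 0, with 118 at an unadjusted p under 0.05. Without control library 7, which leaves library 5 as the only control, it called 14 genes (0.105%), all lower in *Tie2-cko*, among them *Xist* and the 7 listed red blood cell genes. In the other *Tnnt2*-high cells 0 of 15814 were called, with 75 at an unadjusted p under 0.05.

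*Bmp4* and *Mybpc1* chose the members, so that their levels by genotype are a description with no test. In the summed counts *Bmp4* stood at 1.77 and 2.43 UMIs per 10000 in controls and 1.21 and 2.87 in *Tie2-cko*, and the libraries of both genotypes overlapped. *Mybpc1* stood at 0.556 and 0.576 in controls and at 0.494 and 0.8003 in *Tie2-cko*. Of the genes that the choice had not used, *Tnnt1* stood at 5.02 and 4.55 against 4.18 and 5.80, with an edgeR log2 fold change of 0.05 ± 0.19 (SE). *Rspo3* had one of -0.14 ± 0.34, *Clu* of -0.03 ± 0.29, *Isl1* of 0.28 ± 0.39 and *Nppa* of 0.31 ± 0.46. *Acta2* stood at 52.5 and 54.4 in controls against 58.8 and 57.6, with a log2 fold change of 0.12 ± 0.13 and an unadjusted edgeR p of 0.40.

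By list, no member passed the adjusted threshold in any of the 24 lists. Of the 13 outflow tract myocardium genes, 0 had an unadjusted p under 0.05, and their median log2 fold change was 0.05, ranging from -0.15 to 0.28. The median over all genes tested was -0.00079. Of the 25 BMP genes tested, 1 had an unadjusted p under 0.05, lower in *Tie2-cko*, with a median of 0.05. Chamber genes had a median of 0.14 with 0 of 18 at that threshold, and S phase genes one of 0.01 with 0 of 34. Of 43 G2 and mitosis genes, 39 had a negative log2 fold change, with a median of -0.18 and 0 at an unadjusted p under 0.05. In the other *Tnnt2*-high cells their median was 0.04. This direction rested on *Tie2-cko* library 8. As mean levels over cells the list summed to 38.3 and 37.6 UMIs per 10000 in the control members and to 46.6 and 29.6 in those of *Tie2-cko* libraries 6 and 8. Without library 8 the median log2 fold change was 0.12, with 8 of 43 negative, and without library 6 it was -0.55.

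Of 25 genes tested from the matrix list, 4 had an unadjusted edgeR p under 0.05, against 0.836% of all 12676 genes tested. All 4 were lower in *Tie2-cko* (*Hapln1*, *S100a6*, *Fn1* and *Fbln2*), and the median of the list was -0.18. Most of the list was named by the study on these same samples, so that this count is a description and no independent support. In the endocardial cells of *Tie2-cko* hearts the study reported *Hapln1* as lower but *S100a6* as higher. With the likely doublets removed, 0 of 22 genes of the list had an unadjusted p under 0.05, with a median of -0.07. The median was -0.34 without library 8, -0.09 without library 6 and -0.00025 without control library 7. The study, citing earlier work and among its staining results on the cardiac matrix, reported fibronectin expression as not altered. RNA levels in outflow tract cardiomyocytes are an unlike measure and give no check of that statement on fibronectin. Its gene *Fn1* stood at 0.797 and 0.880 UMIs per 10000 in control members and at 0.524 and 0.541 in those of *Tie2-cko* (log2 fold change -0.66 ± 0.14 SE, edgeR adjusted p = 1). Its log2 fold change was -0.21 with the likely doublets removed and -0.32 without the members holding *Nr2f2* and *Tbx5*. *Hapln1*, the link protein that binds versican to hyaluronan, stood at 0.159 and 0.263 against 0.041 and 0.127 (log2 fold change -1.31 ± 0.50, adjusted p = 1). Its log2 fold change was -0.40 with the likely doublets removed, -0.77 without the members holding *Nr2f2* and *Tbx5*, -0.72 without library 6 and -2.33 without library 8. *Vcan* itself stood at 5.25 and 8.05 against 5.39 and 6.80, with a log2 fold change of -0.13 ± 0.22. With libraries 5 and 6 against 7 and 8 as a batch term, 24 genes (0.189%) passed the adjusted threshold, all lower in *Tie2-cko*, among them *Fn1*, *Hapln1*, *S100a6*, *Tek* and 6 of the 7 listed red blood cell genes. The labels name no such batch.

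Among other cell types in the members, red blood, endothelial and epicardial lists had the most negative median log2 fold changes. Mesenchymal markers had a median of -0.05 with 1 of 9 at an unadjusted edgeR p under 0.05. Epithelial markers had one of -0.14 with 0 of 5. Neural crest markers, and macrophage and platelet markers, had medians of 0.11 and -0.30 with 0 of 3 and 0 of 2. All 7 red blood cell genes were lower in *Tie2-cko*, each with an unadjusted p under 0.05, with a median log2 fold change of -2.89 and mean levels over cells that summed to 92.3 and 23.0 UMIs per 10000 in the controls against 12.1 and 8.45. Library 5 set much of this size. Without it the median was -0.89, with 6 of 7 genes lower and 4 at an unadjusted p under 0.05, and *Hbb-y* changed from -3.07 to -1.09. With the likely doublets removed the median was -2.03. Endothelial markers had a median of -0.60 with 3 of 9 at an unadjusted p under 0.05, and their sums were 0.47 and 0.35 against 0.23 and 0.44. Epicardial markers had a median of -0.80 with 3 of 6. With the likely doublets removed both lists had 0 at that threshold, of 7 and 4 tested, with medians of -0.03 and 0.15. The endothelial median was -0.24 without library 5, -1.24 without library 7 and -1.19 without library 8. *Tek* itself was found at 38 and 14 UMIs in the members of the control libraries and at 3 and 3 in those of *Tie2-cko*, a log2 fold change of -3.07 ± 0.54. The values of *Fn1* and *Hapln1* and the endothelial and epicardial medians were all smaller in size with the likely doublets removed. Those medians then covered fewer genes, and a link between these changes was not tested.

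The genotype effect in the members was then compared with that in the other *Tnnt2*-high cells of the same libraries, through the interaction of cell group and genotype in a model that also held a term for each library. Of 15323 genes tested, 0 (0%) had an adjusted p under 0.05 by edgeR, with 316 at an unadjusted p under 0.05, and DESeq2 called 0, with 74. The 316, 2.06% of those tested, again lay below the share that a threshold of 0.05 gives where no gene differs. *Hapln1* differed by -1.04 ± 0.20 on the log2 scale and *Fn1* by -0.44 ± 0.14, both with an edgeR adjusted p of 1. With the likely doublets removed these were -0.20 and -0.16, and without the members holding *Nr2f2* and *Tbx5* -0.57 and -0.12. *Tagln* differed by 0.48 ± 0.09, with an adjusted p of 1, its log2 fold change being 0.08 ± 0.22 in the members and -0.40 ± 0.19 in the other cells. *Tagln* was called where the members held 1 or more *Bmp4* and *Mybpc1* UMIs per 10000, as the only gene of 15446 (0.00647%), and with *Cck* among 15077 (0.0133%) without the members holding *Nr2f2* and *Tbx5*. Without a filter on low counts 25 of 22832 genes (0.109%) were called, *Tagln* and *Hapln1* among them. Of these, 21 were negative, with *Tbx18*, *Krt7* and *Rbp4* at the smallest adjusted p, and *Upk1b*, *Cd93* and *Eng* also among them. The 4 positive ones were *Gtsf1*, *Myh11* (3.43), *Nppa* (0.63) and *Tagln*. G2 and mitosis genes had a median of -0.25, with 42 of 43 below 0 and 2 at an unadjusted p under 0.05. Without *Tie2-cko* library 6, 98 of 15967 genes (0.614%) were called, among them *Hapln1*, *Fn1*, *Tagln* and 29 of the 43 genes of that list, whose median was then -0.64. Without *Tie2-cko* library 8, 38 of 15770 genes (0.241%) were called and 0 of the list, whose median was then 0.11 with 6 of 43 below 0. A left-out library leaves its genotype with 1, which the fit assumes to vary like the other genotype.

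**Figure D5:**
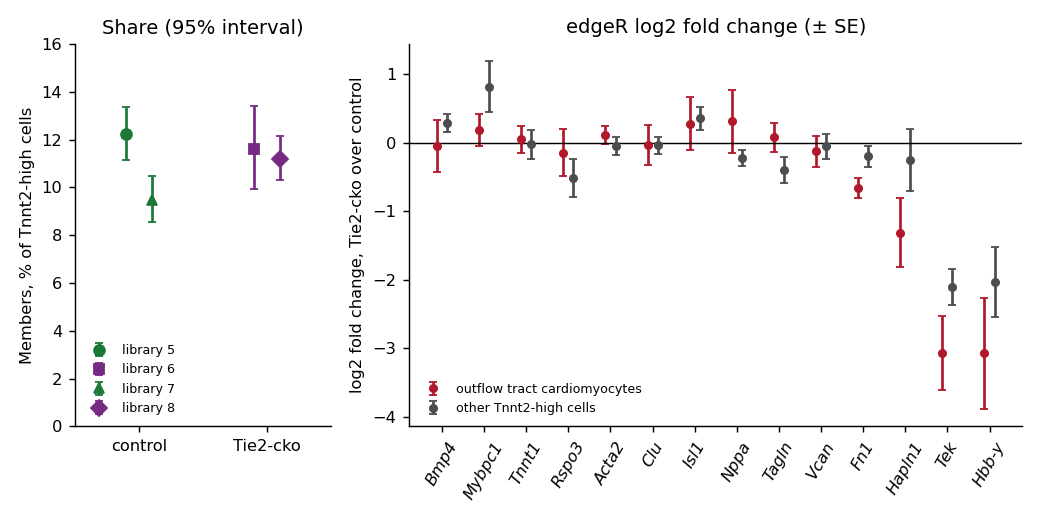
Left, members as a percentage of *Tnnt2*-high cells in each library with exact 95% binomial intervals. Right, edgeR log2 fold change of *Tie2-cko* over control ± SE (n = 2 libraries per genotype) for 14 genes in the members (red) and the other *Tnnt2*-high cells (grey). The shares ran from 9.49% to 12.2%, and none of the genes had an adjusted p under 0.05. *Bmp4* and *Mybpc1* chose the members and are shown as a description.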

How the data were processed

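The deposited files hold UMI counts per gene and barcode, made by the authors with Cell Ranger (6.1.2 by the file headers, the methods naming another version) on mm10 per the submitters' processing notes. Groups came from the labels. The annotation is not given in the sources used here, and positions come from GENCODE vM21. Doublets were scored with Scrublet in scanpy 1.11.5, and the highest scores were removed as an alternative, at 0.8% per 1000 barcodes. Counts summed per library were compared with edgeR 4.0.16 (R 4.3.3, TMM, filterByExpr, threshold 0.05), with DESeq2 1.42.0 as an alternative. Standard errors were derived from each log2 fold change and its F statistic. The scripts were tested on simulated data. The cell definition, gene lists and alternatives were chosen with earlier results of these data known. Named genes were those of the definition, 2 to 6 per list, the 15 highest and lowest ratios in the least extreme library, and *Tek* with the study's genes. Up to 15 genes past the adjusted threshold would have been named.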

Additional observations from a re-analysis of the deposited data

How the results depend on the processing

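With 2 libraries per genotype, leaving out 1 moved the genotype results, and removing likely doublets shrank several fold changes. The methods describe control and mutant libraries as somite-matched and sequenced together, but neither they nor the labels name which libraries were matched. The batch term below sets 5 beside 6 and 7 beside 8. The genotype test called 0 genes, and 38 without a filter on low counts and 24 with libraries 5 and 6 against 7 and 8 as a batch term, all lower in *Tie2-cko* and including 7 and 6 of the red blood cell genes. It called 0 to 14 genes when a library was left out, the 14 without control library 7. The difference between cell groups called 0 genes, 25 without a filter, 1 (*Tagln*) with the threshold at 1 per 10000 and 2 (*Tagln* and *Cck*) without members holding at least 2 *Nr2f2* and *Tbx5* UMIs, an alternative chosen after the data had been seen. It called 0 to 98 genes when a library was left out. The difference in share was -0.42 points at 1 per 10000 and -0.31 without the *Nr2f2* and *Tbx5* members, and ran from -0.83 (without control library 7) to 1.91 (without control library 5). The mean log2 ratio of the 4 markers was 2.15 against the remaining cells that met the other steps and 1.68 without the *Nr2f2* and *Tbx5* members, and 1.38 to 1.52 with a library left out. For 14 genes, 130 of 165 genotype values under the alternatives kept their direction and call. Those that turned for *Bmp4* were 0.032 at 3 UMIs, 0.069 at 1 per 10000 and 0.030 without the *Nr2f2* and *Tbx5* members. *Rspo3* gave 0.034 and 0.044 at 3 UMIs and at 1 per 10000, *Clu* 0.11, 0.10 and 0.084 in the same order as *Bmp4*, *Nppa* -0.44 at 1 per 10000 and -1.07 without the *Nr2f2* and *Tbx5* members, and *Tnnt1* -0.0031 with doublets removed. With a library left out, the log2 fold changes ran from -0.78 to 0.45 for *Bmp4*, -0.19 to 0.49 for *Mybpc1*, -0.19 to 0.26 for *Tnnt1*, -0.64 to 0.25 for *Rspo3*, -0.54 to 0.36 for *Clu*, -0.42 to 0.75 for *Isl1*, -0.21 to 1.14 for *Nppa*, -0.17 to 0.38 for *Tagln* and -0.38 to 0.18 for *Vcan*, and from -2.33 to -0.72 for *Hapln1*, -0.70 to -0.62 for *Fn1* and -3.87 to -1.09 for *Hbb-y*. With doublets removed these last were -0.40, -0.21 and -2.13. The causes were not tested.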

Other observations

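Imprinted genes were looked at after *Meg3*, *Dlk1* and *Rian* had appeared among the leading genes of the outflow tract cardiomyocytes, and the following is a description of genes chosen after their values had been seen. These 3 genes belong to the imprinted *Dlk1-Meg3* region of chromosome 12, where *Dlk1* (chr12:109452823-109463336), *Meg3* (chr12:109541001-109571726), *Rian* (chr12:109603940-109661716) and *Mirg* (chr12:109729764-109749460, all plus strand, GRCm38) follow each other. *Dlk1*, a membrane ligand related to Notch ligands, is expressed from the paternal allele, and the other 3, which make non-coding RNAs, from the maternal allele. In libraries 5 to 8 *Meg3* stood at 7.38, 8.26, 6.77 and 7.08 UMIs per 10000 in the outflow tract cardiomyocytes and at 1.35, 1.68, 1.29 and 1.13 in the other *Tnnt2*-high cells. *Dlk1* averaged 2.15 ± 0.57 against 0.31 ± 0.12, *Rian* 1.17 ± 0.16 against 0.26 ± 0.038 and *Mirg* 0.098 ± 0.019 against 0.024 ± 0.0032 (SD, n = 4). All 4 were thus higher in every library, whereas *Rtl1* of the same region was at or near 0.

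Of the imprinted genes of other regions, those that were higher differed by less than *Dlk1*, *Meg3* and *Rian*. The growth-restraining *Cdkn1c* averaged 27.5 ± 1.27 UMIs per 10000 against 17.3 ± 2.29, *Peg3* 3.54 ± 0.29 against 2.09 ± 0.16, *H19* 5.72 ± 0.47 against 3.94 ± 0.70 and *Igf2* 4.65 ± 0.22 against 3.36 ± 0.46. *Grb10* averaged 4.11 against 3.07 and *Igf2r* 3.19 against 2.78, and *Zim1*, at 0.13 against 0.11, was higher in 3 of 4 libraries. *Mest* went the other way, at 2.52 ± 1.00 against 8.52 ± 0.72, as did *Plagl1*, at 0.76 ± 0.074 against 0.94 ± 0.066.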
